A study of Mus musculus with 19 samples.

Results

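Liver tumours that arose 9 months after an AP-1 transgene was switched on were compared with liver of 2-month mutants, each against control livers of its own time, to find where the tumours went beyond the change already present early. For each gene the early effect is the log2 difference between mutants and controls at 2 months, the tumour effect is that between tumours and controls at 9 months, and the interaction is the tumour effect minus the early effect. All genes of the deposited table were taken, 55421 in number, of which 14701 had enough counts to be tested, and the comparison rests on 16 of the 19 libraries of the series. All animals were adult male C57BL/6 mice. Mutants carried a transgene that encodes c-Jun linked to Fra-2, a pair of AP-1 proteins, and the controls were littermates. Doxycycline was removed at 3 weeks of age, which starts the transgene in mutants, and controls had the same treatment. The groups were 2-month controls (n = 6), 2-month mutants (n = 3), 9-month controls (n = 3) and tumours of 9-month mutants (n = 3 animals), with the months counted from the removal of doxycycline. Mutant 1 of the 9-month set gave 2 tumours, which were added together, and mutants 2 and 3 gave 1 each. The labels call the control and 2-month samples mostly hepatocytes and the tumours mostly transformed hepatocytes, and the promoter that drives the transgene is not given in the sources used here. Livers of the same mutants without visible tumour were also sequenced and are given here only beside some of the genes.

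In the transcription factor family AP-1, a Jun protein pairs with a Fos or Jun protein to bind DNA. Mature hepatocytes oxidise fatty acids, build and export lipid, break down amino acids and make bile acids, and enzymes of these pathways are laid out in zones: around the central vein, Wnt signals from endothelial cells keep on genes such as Glul. The capillaries of normal liver, the sinusoids, are lined by porous endothelial cells with a gene programme of their own, and liver tumours are known to be fed by vessels that lose these features and take on those of ordinary capillaries and arteries.

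The total per library was 14.3 to 17.4 M counts in the 2-month controls, 15.7 to 18.8 M in the 2-month mutants, 19.9 to 20.9 M in the 9-month controls and 19.5 to 21.6 M in the tumours. The times were sequenced in separate runs. A run effect shared by mutants and controls cancels in the interaction, and one that is not shared cannot be told apart from time. Levels are CPM (counts scaled to a common library total) after TMM scaling, which compares libraries for 1 gene and not genes of different length. Changes are on the log2 scale, ± their SE (standard error). A gene passed where its p-value in the quasi-likelihood test of edgeR, adjusted over all tested genes by Benjamini and Hochberg's method, was under 0.05. All 10 hepatocyte markers were detected in every group, with a summed level of 139000 to 169000 CPM in 2-month controls, 67000 to 83100 in 2-month mutants, 128000 to 142000 in 9-month controls and 82000 to 100000 in tumours. Fosl2, the gene of Fra-2, was at 847, 779 and 617 CPM in 2-month mutants and 568, 689 and 579.8 in tumours, against 8.04 to 18.3 (median 11.1) and 19, 12.1 and 9.02 in the controls of each time, and its interaction was -0.45 ± 0.37 (adjusted p = 0.597). Jun, which encodes c-Jun, was at 614, 653 and 514 CPM in 2-month mutants and 473, 558 and 396 in tumours, against 10.1 to 24.9 (median 16.3) in 2-month and 371, 39.1 and 22.1 in 9-month controls (interaction -3.45 ± 0.97, adjusted p = 0.0824). The 9-month control 1 carried far more Jun than the other two, and without the 9-month animals numbered 1 the interaction of Jun was -1.16 (adjusted p = 0.195), while without 9-month control 3 it was -3.96 and passed (adjusted p = 0.0338). Counts of both genes may include the transgene. Of 30 immediate early and heat shock genes, 9-month control 1 was the highest control in 27 and mutant 1 the highest tumour in 28. Myc, the growth regulator, was at 5.42, 8.01 and 13.9 CPM in 2-month mutants, 41.5, 12.5 and 22.4 in tumours, 3.17 to 11.8 (median 7.25) in 2-month controls and 18.2, 6.06 and 3.97 in 9-month controls (interaction 1.11 ± 0.81, adjusted p = 0.539).

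Many genes differed between mutants and controls at each time, and in a smaller set the interaction passed: the tumours went further than the 2-month mutants, less far or the other way. The tumour effect passed in 6210 genes (42.2% of those tested) and the early effect in 4876 (33.2%). The interaction passed in 385 genes (2.62%), 131 higher (0.891%) and 254 lower (1.73%), and 2479 had an unadjusted p under 0.05. DESeq2 called 866, so a gene without a call here is not shown to have equal effects. In all 385 the tumours and the 2-month mutants did not overlap once each animal was set against the mean of its controls, a property of 27.7% of all tested genes. The median absolute interaction of the 385 was 1.62, and 307 were at least 2-fold. By the calls of the 2 effects, 161 genes had a tumour effect and no called early effect, 66 an early effect and no called tumour effect, 106 both with the larger one in tumours, 20 both with the smaller one in tumours, and 32 both with opposite sign. The 9-month controls also differed from the 2-month controls in 873 genes (5.94%, with 3.92% higher and 2.01% lower), and in 121 of the 385 (31.4%), so part of a difference between effects can lie in the controls. This share was highest where a rise in mutants at 2 months was met by lower tumours at 9 months: the controls had risen in 16 of 24 such genes and fallen in none. Among genes with a called early rise and no called tumour effect, the controls had risen in 25 of 47. The number of calls moved with single animals: it was 136 without 2-month mutant 1 and 131 without 2-month mutant 2, 248, 246 and 173 without 9-month control 1, 2 and 3, and 819 and 718 without tumour-bearing mutant 1 and 3. At least 384 of the 385 kept the sign of their interaction when any 1 animal was left out. Without both 9-month animals numbered 1, 659 genes passed, 308 of them among the 385.

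**Figure D1:**
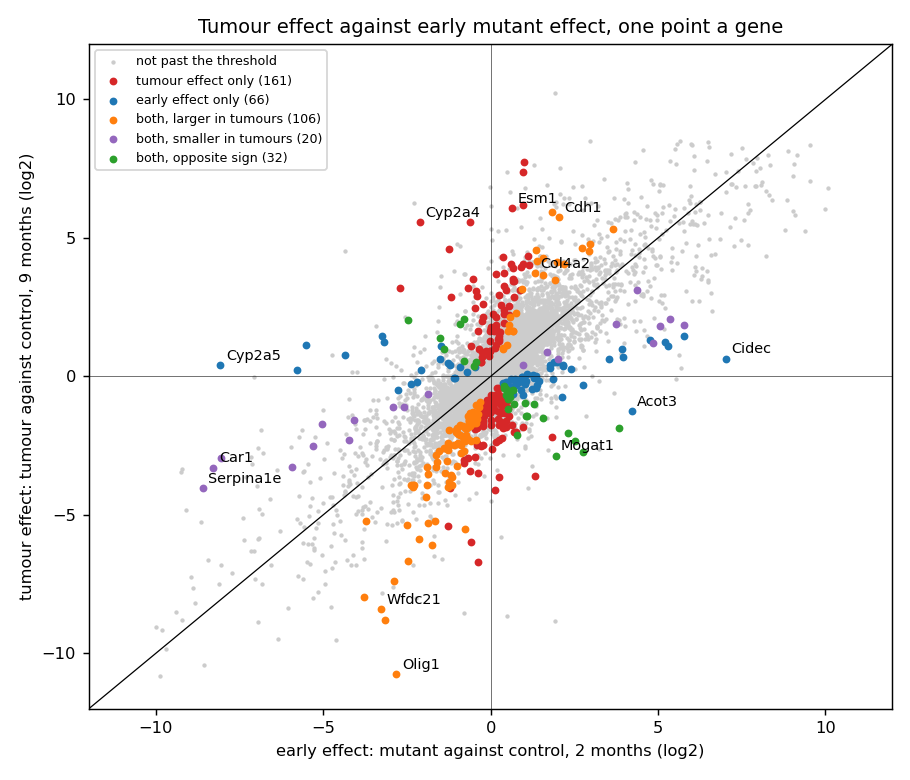
Tumour effect at 9 months (y axis, log2) against early mutant effect at 2 months (x axis, log2), 1 point for each of 14701 tested genes. Coloured points are the 385 genes past the interaction threshold, sorted by which effects passed, and the line marks equal effects. Most genes lie near the line, Esm1 and Cyp2a4 lie high above it at a small or negative early effect, and Cidec and Acot3 lie far to the right at a tumour effect near or below 0.

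**Figure D2:**
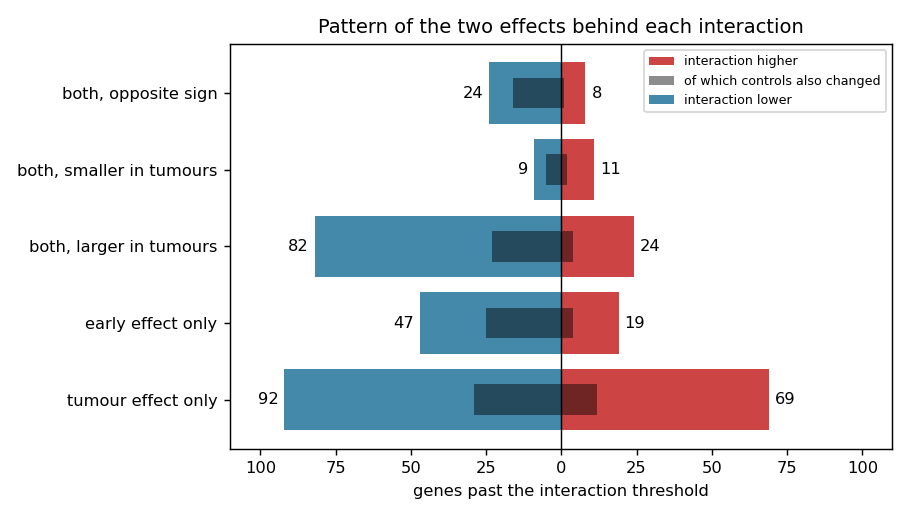
Number of genes past the interaction threshold (x axis) by pattern of the 2 effects (y axis), with interactions above 0 to the right and below 0 to the left. The dark inner bars are the genes in which the controls also changed between the times, 16 of the 24 genes with an early rise and lower tumours.

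Most of the listed endothelial genes of ordinary capillaries and arteries rose in tumours, some of them by more than at 2 months. Of 20 tested genes of large vessel and capillarised endothelium, 6 had an interaction above 0 past the threshold (0.891% of all genes did) and none below, and the median was 0.99 against 0.028 over all tested genes. In the early effect 2 of the 20 rose (17.8% of all genes did) and in the tumour effect 13 (22.7% of all genes did), and none fell in either. Esm1, a proteoglycan of the tip cells at the front of growing vessels, stood at 50.4, 29 and 46.8 CPM in the tumours against 0.499, 0.983 and 0.38 in their controls, and 0.677, 0.782 and 1.43 in 2-month mutants against 0.472 to 0.759 (median 0.64) in theirs. The interaction of Esm1 was 5.43 ± 0.48 (adjusted p = 7.77e-05), from a tumour effect of 6.07 and an early effect of 0.63. For Esm1, the tumours all lay above their controls and the 2-month mutants overlapped theirs. Esm1 (ENSMUSG00000042379.8) lies on chromosome 13, positions 113209659 to 113218098, plus strand in build GRCm38. Its levels in the visibly tumour-free liver of the same 3 mutants were 3.03, 4.11 and 4.37 CPM, all below the tumours. For Emcn, a sialomucin of capillary and venous endothelium, the 2-month mutants read 2.65, 2.65 and 2.28 CPM beside 1.55 to 3.33 (median 2.37) in controls, and the tumours 26.2, 14.5 and 10.6 CPM beside 3.05, 4.10 and 3.59. In Emcn, the tumours all lay above their controls and the 2-month mutants overlapped theirs. Emcn's tumour effect (2.26) minus its early effect (0.06) came to 2.20 ± 0.44 (adjusted p = 0.0176). Efnb2, the ephrin ligand of arterial endothelium, had 2.09, 3.31 and 4.01 CPM in 2-month mutants, 20.6, 16.3 and 12.7 in tumours, 2.22 to 3.72 (median 2.72) in 2-month and 3.49, 4.21 and 3.48 in 9-month controls, with an interaction of 1.98 ± 0.36 (adjusted p = 0.0129). Ly6c1, a surface protein of capillary endothelium, was measured at 0.0678 to 0.472 (median 0.307) CPM in 2-month controls and 0.169, 0.181 and 0.223 in 2-month mutants, and at 0.61, 0.328 and 0.489 in 9-month controls and 4.34, 9.04 and 2.94 in tumours. Ly6c1 had an early effect of -0.52 and a tumour effect of 3.50, which differed by 4.02 ± 0.76 (adjusted p = 0.0143). For Ly6c1, the tumours all lay above their controls and the 2-month mutants overlapped theirs. The remaining members past the threshold were Dll4, the Notch ligand of arteries and tip cells, and Tie1, an endothelial receptor kinase (0.91 ± 0.21). Dll4 stood at 19.5, 17.8 and 16.6 CPM in the tumours against 4.16, 6.17 and 5.65 in their controls, and 2.82, 2.89 and 4.15 in 2-month mutants against 2.17 to 4.71 (median 2.99) in theirs. The interaction of Dll4 was 1.73 ± 0.34 (adjusted p = 0.0178), from a tumour effect of 1.75 and an early effect of 0.02. For Dll4, the tumours all lay above their controls and the 2-month mutants overlapped theirs. Both Dll4 and Tie1, and the vessel genes Angpt2 and Notch4, fell outside the rule for named genes and were chosen after their values were seen.

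Angpt2 and Notch4 stand outside that list. Angpt2 is the angiopoietin that loosens vessels for sprouting. For Angpt2 the 2-month mutants read 0.733, 0.421 and 0.848 CPM beside 0.539 to 1.52 (median 0.71) in controls, and the tumours 5.34, 5.43 and 10.3 CPM beside 0.61, 1.04 and 1.14. In Angpt2, the tumours all lay above their controls and the 2-month mutants overlapped theirs. Angpt2's tumour effect (2.91) minus its early effect (-0.40) came to 3.31 ± 0.60 (adjusted p = 0.0129). Notch4 is the Notch receptor of endothelium. Notch4 had 2.20, 2.65 and 3.79 CPM in 2-month mutants, 22.7, 24.3 and 12.8 in tumours, 3.10 to 4.42 (median 3.80) in 2-month and 4.55, 9.12 and 5.38 in 9-month controls, with an interaction of 2.04 ± 0.39 (adjusted p = 0.0167). The summed level of the 21 listed large vessel genes was 188 to 269 CPM in 2-month controls, 216 to 286 in 2-month mutants, 220 to 286 in 9-month controls and 459 to 581 in tumours, with 1 gene at 0 in the 2-month controls and none in the other groups. In bulk tissue more cells of a type and more RNA per cell cannot be told apart. Dll4 lost its call without 2-month mutant 1 or 2 (adjusted p from 0.057 to 0.0571), and Tie1 lost its call without tumour-bearing mutant 2, 2-month mutant 1 or 2, any one 9-month control or 2-month control 4 or 5 (adjusted p from 0.0506 to 0.105). The list count was 4 to 8 when single animals were left out, and 5 without the 9-month animals numbered 1.

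Several markers of the sinusoidal endothelium were lower in tumours. Of 18 tested, 2 had an interaction below 0 past the threshold (1.73% of all genes did) and none above, with a median of -0.93, while 7 fell and 2 rose in the tumour effect (19.5% and 22.7% of all genes did) and 1 fell and 1 rose in the early effect (15.3% and 17.8%). Fcgr2b, the Fc receptor with which sinusoids clear immune complexes, was measured at 37.5 to 66.2 (median 43.7) CPM in 2-month controls and 48, 50 and 52.4 in 2-month mutants, and at 57.1, 57 and 60.2 in 9-month controls and 22.5, 25.7 and 26.7 in tumours. Fcgr2b had an early effect of 0.12 and a tumour effect of -1.22, which differed by -1.34 ± 0.22 (adjusted p = 0.00992). For Fcgr2b, the tumours all lay below their controls and the 2-month mutants overlapped theirs. Dnase1l3, an endonuclease that liver endothelium and macrophages secrete, stood at 26.8, 19.6 and 28.5 CPM in the tumours against 73.4, 70.5 and 84.5 in their controls, and 43.7, 58.1 and 50.3 in 2-month mutants against 46.8 to 92.1 (median 55.3) in theirs. The interaction of Dnase1l3 was -1.38 ± 0.29 (adjusted p = 0.0229), from a tumour effect of -1.61 and an early effect of -0.23. For Dnase1l3, the tumours all lay below their controls and the 2-month mutants overlapped theirs. F8 and Wnt2 did not pass and are given because the rule took the members with the smallest p-values in the interaction test. Of the 18 tested markers, 14 had an interaction below 0 and 4 above it. F8, coagulation factor VIII, was at 5.44, 4.21 and 6.89 CPM in tumours and 11.5, 9.67 and 11.5 in 9-month controls (interaction -1.26 ± 0.36, adjusted p = 0.0796), but passed without 2-month control 1 or tumour-bearing mutant 3 (adjusted p = 0.0297 and 0.0425). Wnt2, a Wnt ligand of the central vein and sinusoids, was at 0.959, 0.0369 and 0.504 CPM in tumours and 1.89, 2.84 and 2.44 in 9-month controls, and at 1.69, 3.97 and 3.03 in 2-month mutants (interaction -2.36 ± 0.75, adjusted p = 0.121), and it passed without tumour-bearing mutant 1 (adjusted p = 0.021). The summed level of all 18 markers was 397 to 701 CPM in 2-month controls, 473 to 619 in 2-month mutants, 541 to 607 in 9-month controls and 317 to 829 in tumours, so the list as a whole overlapped in all groups. Dnase1l3 lost its call without tumour-bearing mutant 2, 2-month mutant 2 or 9-month control 3 (adjusted p from 0.0509 to 0.082). The list count was 1 without 2-month mutant 2 or 9-month control 3, and 4 without tumour-bearing mutant 1.

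**Figure D3:**
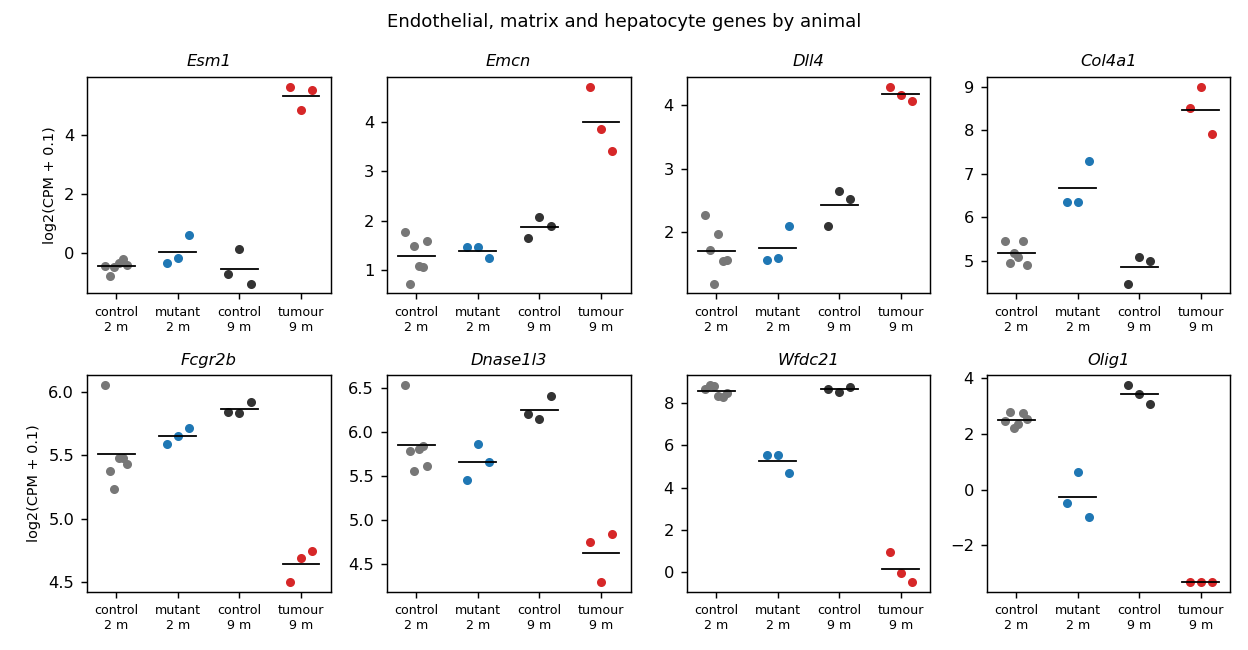
Level of 8 genes in each animal (y axis, log2 of CPM + 0.1) in 2-month controls and mutants and in 9-month controls and tumours (x axis). Points are animals and bars group means. Esm1, Emcn and Dll4 are highest in the tumours, Col4a1 rises in 2-month mutants and more in tumours, Fcgr2b and Dnase1l3 are lowest in tumours, and Wfdc21 and Olig1 fall in 2-month mutants and further in tumours.

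Some basement membrane genes rose early and rose more in tumours. Of 45 tested collagens and structural matrix genes, 30 rose and 4 fell in the early effect, 36 rose and 1 fell in the tumour effect, and the interaction passed in 4 above 0 and 1 below (median 0.73). Of all tested genes, 17.8% rose and 15.3% fell early, and 22.7% rose and 19.5% fell in tumours. The interaction passed above 0 in 0.891% of all genes and below 0 in 1.73%. For Col4a1, a chain of type IV collagen, the sheet-forming collagen under epithelium and around vessels, the 2-month mutants read 81.5, 81.7 and 157 CPM beside 29.5 to 44 (median 35) in controls, and the tumours 365, 512 and 243 CPM beside 22.1, 33.9 and 31.7. In Col4a1, tumours and 2-month mutants both lay wholly above the controls of their time. Col4a1's tumour effect (3.68) minus its early effect (1.55) came to 2.12 ± 0.40 (adjusted p = 0.0143). Col4a2, its partner chain, was measured at 20.3 to 31.9 (median 27.1) CPM in 2-month controls and 50.9, 48.9 and 99.1 in 2-month mutants, and at 12.7, 21.7 and 20.3 in 9-month controls and 223, 349 and 148 in tumours. Col4a2 had an early effect of 1.33 and a tumour effect of 3.72, which differed by 2.39 ± 0.43 (adjusted p = 0.0129). For Col4a2, tumours and 2-month mutants both lay wholly above the controls of their time. The genes lie head to head, Col4a1 on chromosome 8, positions 11198423 to 11312826, minus strand, and Col4a2 on chromosome 8, positions 11312805 to 11449287, plus strand (GRCm38), and their annotated first bases overlap by 22 bases. Sparc, a collagen-binding matrix protein, stood at 318, 372 and 217 CPM in the tumours against 47, 79.4 and 60.5 in their controls, and 94.7, 91.8 and 151 in 2-month mutants against 45.8 to 76.5 (median 71.6) in theirs. The interaction of Sparc was 1.52 ± 0.35 (adjusted p = 0.0328), from a tumour effect of 2.28 and an early effect of 0.76. For Sparc, tumours and 2-month mutants both lay wholly above the controls of their time. The laminin chain Lama4 of vessel walls, chosen after its values were seen, had an interaction of 1.55 ± 0.37 and no called early effect. Nid2, nidogen 2, which links laminin to type IV collagen, stands outside that list. For Nid2 the 2-month mutants read 7.79, 5.78 and 7.63 CPM beside 9.26 to 21.6 (median 12.5) in controls, and the tumours 34.6, 24.9 and 15.5 CPM beside 4.55, 10.4 and 5.49. In Nid2, the tumours all lay above their controls and the 2-month mutants all lay below theirs. Nid2's tumour effect (1.88) minus its early effect (-0.93) came to 2.81 ± 0.48 (adjusted p = 0.0115). Lamb3, a laminin chain of epithelial basement membrane, was the list member with an interaction below 0. Lamb3 was measured at 3.69 to 6.97 (median 4.72) CPM in 2-month controls and 1.86, 1.56 and 1.47 in 2-month mutants, and at 15.6, 18.8 and 16 in 9-month controls and 1.76, 1.59 and 1.89 in tumours. Lamb3 had an early effect of -1.62 and a tumour effect of -3.26, which differed by -1.65 ± 0.32 (adjusted p = 0.0171). For Lamb3, tumours and 2-month mutants both lay wholly below the controls of their time. The levels of Lamb3 in tumours and 2-month mutants overlapped, while its controls rose between the times (1.75 ± 0.19). Dcn, decorin, a proteoglycan of stromal cells, was at 166, 84.2 and 107 CPM in tumours and 286, 226 and 291 in 2-month mutants and did not pass (interaction -1.09 ± 0.29, adjusted p = 0.061), though it did without tumour-bearing mutant 1 (adjusted p = 0.00456). Of 18 tested stellate cell and myofibroblast markers none passed in the interaction (median -0.01), and their summed level was 455 to 699 CPM in 2-month controls, 797 to 1180 in 2-month mutants, 546 to 726 in 9-month controls and 799 to 1250 in tumours. Sparc lost its call without tumour-bearing mutant 2, 2-month mutant 1 or 2, 9-month control 1 or 3 or 2-month control 1, 4, 5 or 6 (adjusted p from 0.0518 to 0.0998), and Lama4 lost its call without tumour-bearing mutant 2, 2-month mutant 1 or 2, any one 9-month control or 2-month control 1, 2, 4, 5 or 6 (adjusted p from 0.0518 to 0.117). Lamb3 lost its call without 2-month mutant 1 (adjusted p = 0.0592). The list count of 4 was 2 without 2-month mutant 1 or 2, 2-month control 1, 4, 5 or 6, 9-month control 1 or 3, or tumour-bearing mutant 2, and 7 and 11 without 2-month mutant 3 and tumour-bearing mutant 3.

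Fetal liver and tumour marker genes were a further group above 0, with wide spread between the tumours. Of 28 tested oncofetal and liver tumour markers, 22 rose in the tumour effect and 9 in the early effect, and the interaction passed in 5 above 0 and none below (median 0.96). Among all tested genes 22.7% rose in the tumour effect, 17.8% in the early effect, and 0.891% passed above 0 in the interaction. Afp, alpha-fetoprotein, the main serum protein of fetal liver, stood at 3.82, 2.51 and 54.2 CPM in the tumours against 0.444, 1.26 and 0.761 in their controls, and 0.339, 0.722 and 0.491 in 2-month mutants against 0.404 to 2.03 (median 1.34) in theirs. The interaction of Afp was 5.84 ± 1.42 (adjusted p = 0.0453), from a tumour effect of 4.60 and an early effect of -1.24. For Afp, the tumours all lay above their controls and the 2-month mutants overlapped theirs. Mutant 3 held most of the Afp. For Tff3, a trefoil peptide of mucus-secreting cells, the 2-month mutants read 2.03, 13.8 and 14.4 CPM beside 1.15 to 11.9 (median 4.33) in controls, and the tumours 23.8, 193 and 55.6 CPM beside 0.277, 0.819 and 0.163. In Tff3, the tumours all lay above their controls and the 2-month mutants overlapped theirs. Tff3's tumour effect (7.73) minus its early effect (1.00) came to 6.74 ± 1.44 (adjusted p = 0.0267). Peg3, an imprinted zinc finger gene, had 2.31, 2.77 and 3.39 CPM in 2-month mutants, 56.8, 9.82 and 17.8 in tumours, 3.45 to 10.1 (median 6.18) in 2-month and 3.33, 4.32 and 4.02 in 9-month controls, with an interaction of 4.04 ± 0.78 (adjusted p = 0.0176). Bex2, a small brain-expressed protein, had 0.0564, 0.542 and 0.446 CPM in 2-month mutants, 1.26, 5.87 and 6.34 in tumours, 0.0674 to 0.375 (median 0.106) in 2-month and 0.0555, 0.109 and 0 in 9-month controls, with an interaction of 5.21 ± 1.28 (adjusted p = 0.0447). The 9-month controls together held 3 counts of Bex2 against 373 in the tumours, a ratio of 67.4 with a 95% counting interval of 22.9 to 328. Golm1, a Golgi protein used as a liver cancer serum marker and chosen after its values were seen, reached 20.8, 108 and 30.2 CPM in tumours (interaction 2.90 ± 0.72). Tumour-free liver of the same mutants held 19.7, 5.67 and 4.93 CPM of Afp and 32.4, 92.7 and 166 of Tff3. These levels overlapped the tumours, as did those of Bex2, so the rises of these genes were not particular to the tumours. Peg3 and Golm1 were lower in all tumour-free livers than in any tumour. Afp lost its call without any one 2-month mutant, any one 9-month control or any one 2-month control (adjusted p from 0.0524 to 0.129), and Tff3 lost its call without 2-month mutant 1 or 2 or any one 9-month control (adjusted p from 0.0508 to 0.0849). Peg3 lost its call without 2-month mutant 1 or 2 (adjusted p from 0.0551 to 0.059), and Bex2 lost its call without tumour-bearing mutant 2, any one 2-month mutant, any one 9-month control or any one 2-month control (adjusted p from 0.0515 to 0.115). Golm1 lost its call without 2-month mutant 1 or 2, any one 9-month control or any one 2-month control (adjusted p from 0.0707 to 0.14). No member of the list passed without 2-month mutant 1 or without 2-month mutant 2, 1 passed without any one 9-month control, 2 passed without any one 2-month control, and 6 passed without the 9-month animals numbered 1.

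Other genes named by the rule rose in tumours with an interaction above 0. Zdhhc2, a palmitoyl transferase, was measured at 1.21 to 2.24 (median 1.6) CPM in 2-month controls and 0.959, 1.14 and 0.937 in 2-month mutants, and at 2.05, 1.15 and 0.978 in 9-month controls and 15.4, 7.86 and 14.6 in tumours. Zdhhc2 had an early effect of -0.68 and a tumour effect of 3.18, which differed by 3.86 ± 0.46 (adjusted p = 0.000915). For Zdhhc2, the tumours all lay above their controls and the 2-month mutants all lay below theirs. Aldh18a1, the enzyme that starts proline synthesis from glutamate, stood at 11, 11.3 and 11 CPM in the tumours against 0.61, 0.819 and 0.761 in their controls, and 2.09, 4.75 and 3.79 in 2-month mutants against 1.69 to 3.64 (median 1.99) in theirs. The interaction of Aldh18a1 was 3.26 ± 0.44 (adjusted p = 0.00247), from a tumour effect of 3.92 and an early effect of 0.66. For Aldh18a1, the tumours all lay above their controls and the 2-month mutants overlapped theirs. The controls also differed for Aldh18a1 (-1.61 ± 0.31), the 9-month ones being lower. Myo5c, a myosin of secretory epithelium, had 0.113, 0.542 and 0.892 CPM in 2-month mutants, 19.5, 47.7 and 17.1 in tumours, 0.0628 to 0.579 (median 0.282) in 2-month and 0.222, 0.0546 and 0.217 in 9-month controls, with an interaction of 6.40 ± 1.04 (adjusted p = 0.00992). Of 32 tested genes of glycolysis and gluconeogenesis, 2 passed, both above 0 (0.891% of all genes did). That count was 1 without 2-month mutant 1 or 2, any one 9-month control or 2-month control 1, 2, 3, 4 or 5, and 4 without tumour-bearing mutant 1. For Pkm, pyruvate kinase M, whose splice forms gene counts do not separate, the 2-month mutants read 10.2, 13 and 21.4 CPM beside 7.45 to 11.1 (median 9.38) in controls, and the tumours 25.2, 79.5 and 81.5 CPM beside 6.54, 10.4 and 8.69. In Pkm, the tumours all lay above their controls and the 2-month mutants overlapped theirs. Pkm's tumour effect (2.85) minus its early effect (0.70) came to 2.15 ± 0.50 (adjusted p = 0.0354). Pfkp, the platelet form of phosphofructokinase, had 4.63, 4.63 and 7.58 CPM in 2-month mutants, 21.3, 17 and 10.7 in tumours, 3.33 to 4.40 (median 3.87) in 2-month and 2.22, 3.00 and 3.26 in 9-month controls, with an interaction of 1.99 ± 0.35 (adjusted p = 0.0129). Anxa3, a calcium-dependent membrane-binding annexin, had 8.07, 6.62 and 11.1 CPM in 2-month mutants, 22.2, 97.3 and 68.1 in tumours, 4.38 to 6.37 (median 5.42) in 2-month and 4.44, 6.12 and 5.87 in 9-month controls, with an interaction of 2.84 ± 0.52 (adjusted p = 0.0129). Lpl, lipoprotein lipase, which adult hepatocytes hardly make, was measured at 30.6 to 67.6 (median 50.6) CPM in 2-month controls and 29.2, 21.9 and 55.1 in 2-month mutants, and at 15.3, 18.9 and 12.5 in 9-month controls and 158, 58.9 and 38.7 in tumours. Lpl had an early effect of -0.46 and a tumour effect of 2.45, which differed by 2.91 ± 0.64 (adjusted p = 0.0301). For Lpl, the tumours all lay above their controls and the 2-month mutants overlapped theirs. The controls of Lpl were lower at 9 months (control change -1.65 ± 0.44). Pkm lost its call without tumour-bearing mutant 2, 2-month mutant 1 or 2, any one 9-month control or 2-month control 1, 2, 3, 4 or 5 (adjusted p from 0.0513 to 0.105), and Lpl lost its call without 2-month mutant 1 or 2, any one 9-month control or 2-month control 5 (adjusted p from 0.052 to 0.0929).

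The adhesion gene Cdh1 and a few others rose at both times and further in tumours. Cdh1, E-cadherin, the adhesion protein of epithelial junctions, stood at 209, 420.2 and 212 CPM in the tumours against 5.60, 4.48 and 5.54 in their controls, and 249, 185 and 282 in 2-month mutants against 31.2 to 75.8 (median 58.7) in theirs. The interaction of Cdh1 was 3.70 ± 0.44 (adjusted p = 0.000915), from a tumour effect of 5.75 and an early effect of 2.05. For Cdh1, tumours and 2-month mutants both lay wholly above the controls of their time. The levels of Cdh1 in tumours and 2-month mutants overlapped, and the 9-month controls were lower than the 2-month controls (control change -3.47 ± 0.33). For Slc6a8, the creatine transporter, the 2-month mutants read 49.1, 61.6 and 71.7 CPM beside 5.73 to 12 (median 6.75) in controls, and the tumours 134, 142 and 126 CPM beside 5.60, 4.75 and 4.29. In Slc6a8, tumours and 2-month mutants both lay wholly above the controls of their time. Slc6a8's tumour effect (4.78) minus its early effect (2.98) came to 1.80 ± 0.32 (adjusted p = 0.0129). Espn, espin, an actin bundler of microvilli, had 2.48, 2.41 and 2.81 CPM in 2-month mutants, 22.1, 26.4 and 17.6 in tumours, 0.579 to 1.72 (median 0.845) in 2-month and 1.11, 1.42 and 1.14 in 9-month controls, with an interaction of 2.77 ± 0.45 (adjusted p = 0.00992). Sh3bp4, a regulator of endocytosis, had 6.83, 7.52 and 10.4 CPM in 2-month mutants, 27.1, 26.8 and 17 in tumours, 1.21 to 3.73 (median 2.75) in 2-month and 1.11, 1.04 and 1.47 in 9-month controls, with an interaction of 2.72 ± 0.44 (adjusted p = 0.00992). The controls of Sh3bp4 were lower at 9 months (-1.20 ± 0.32). Tumour-free liver of the same mutants held 14.5, 17.2 and 31.1 CPM of Espn, which overlapped the tumours. Tumour-free levels of Cdh1 and Slc6a8 overlapped the tumours too, and those of Sh3bp4 lay below them.

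A group of genes of the pericentral zone, which beta-catenin maintains, were lower in tumours beyond any early change. Of 24 tested Wnt and beta-catenin targets and pericentral genes, 6 fell and 3 rose in the early effect, 16 fell and 2 rose in the tumour effect, and the interaction passed in 8, all below 0 (median -1.72, 0.028 over all genes). Over all tested genes 15.3% fell and 17.8% rose early, 19.5% fell and 22.7% rose in tumours, and 1.73% passed below 0. Some were feedback targets found in most Wnt-responding cells. Axin2, the scaffold of the beta-catenin destruction complex, was measured at 6.75 to 16.5 (median 10.9) CPM in 2-month controls and 22.4, 15.7 and 15.5 in 2-month mutants, and at 11.6, 8.30 and 10.4 in 9-month controls and 4.56, 1.44 and 2.86 in tumours. Axin2 had an early effect of 0.63 and a tumour effect of -1.75, which differed by -2.39 ± 0.47 (adjusted p = 0.0176). For Axin2, the tumours all lay below their controls and the 2-month mutants overlapped theirs. Nkd1, an inhibitor of Wnt signalling that Wnt induces, had 5.36, 5.0 and 4.77 CPM in 2-month mutants, 2.56, 2.14 and 1.6 in tumours, 5.32 to 8.23 (median 7.35) in 2-month and 7.15, 7.21 and 9.51 in 9-month controls, with an interaction of -1.45 ± 0.29 (adjusted p = 0.0176). Tcf7, a transcription factor partner of beta-catenin, and Rnf43, which removes Wnt receptors, also passed (-1.64 ± 0.39 and -1.25 ± 0.30, both chosen after their values were seen) with no called early effect. The others were pericentral enzymes. Glul, glutamine synthetase, made in normal liver by the cells around the central vein, stood at 179, 80.2 and 41.5 CPM in the tumours against 891, 966 and 974 in their controls, and 541, 444 and 393 in 2-month mutants against 858 to 986 (median 896) in theirs. The interaction of Glul was -2.24 ± 0.45 (adjusted p = 0.0187), from a tumour effect of -3.23 and an early effect of -0.99. For Glul, tumours and 2-month mutants both lay wholly below the controls of their time. For Cyp27a1, sterol 27-hydroxylase of bile acid synthesis, the 2-month mutants read 445, 447 and 310.2 CPM beside 613 to 802 (median 629) in controls, and the tumours 154, 92.4 and 107 CPM beside 526, 445 and 559. In Cyp27a1, tumours and 2-month mutants both lay wholly below the controls of their time. Cyp27a1's tumour effect (-2.12) minus its early effect (-0.73) came to -1.39 ± 0.26 (adjusted p = 0.0153). Rgn, a calcium-binding lactonase, and Oat, ornithine aminotransferase, both chosen after their values were seen, had tumour effects of -5.38 and -5.30 on top of early effects of -2.50 and -1.88. In Glul, Rgn and Oat tumour-bearing mutant 1 kept the highest level of the 3. Axin2 lost its call without 2-month mutant 1 (adjusted p = 0.0567), and Nkd1 lost its call without 2-month mutant 1 or 2 or 9-month control 3 (adjusted p from 0.0508 to 0.057). Tcf7 lost its call without 2-month mutant 1 or 2, any one 9-month control or 2-month control 1, 2, 3, 5 or 6 (adjusted p from 0.0524 to 0.109), and Rnf43 lost its call without tumour-bearing mutant 2 or 3, any one 2-month mutant, 9-month control 1 or 3 or 2-month control 2, 3, 4 or 6 (adjusted p from 0.052 to 0.0981). Glul lost its call without 2-month mutant 1 (adjusted p = 0.0596), and Cyp27a1 lost its call without 2-month mutant 1 or 2 (adjusted p from 0.0514 to 0.0528). Rgn lost its call without tumour-bearing mutant 2, 2-month mutant 1 or 2, any one 9-month control or 2-month control 2, 4, 5 or 6 (adjusted p from 0.0518 to 0.0978), and Oat lost its call without tumour-bearing mutant 2, 2-month mutant 1 or 2, any one 9-month control or 2-month control 2, 4, 5 or 6 (adjusted p from 0.0532 to 0.116). The list count was 0 without 2-month mutant 1, 2 without 2-month mutant 2, 3 to 5 without any one 9-month control, 4 without 2-month control 2 or 6, 5 without 2-month control 4 or 5 or tumour-bearing mutant 2, and 17 without tumour-bearing mutant 1. It was 16 without both 9-month animals numbered 1, and 5 with the second tumour of mutant 1 alone.

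Most enzymes of fatty acid oxidation fell at both times. Of 44 tested, 36 fell and 4 rose early, 40 fell and 1 rose in tumours, and the interaction passed in 11, all below 0 (median -0.64). Shares over all tested genes were 15.3% lower and 17.8% higher early, 19.5% lower and 22.7% higher in tumours, and 1.73% below 0. The controls rose between the times in 10 of the 44 (3.92% of all genes did) and fell in none. Acaa1b, the peroxisomal thiolase, and Cyp4a10, a fatty acid hydroxylase, both chosen after their values were seen, had interactions of -1.48 ± 0.29 and -4.20 ± 0.92. Acaa1b was at 67.9, 48.4 and 61.8 CPM in tumours and 51.9, 67.7 and 56.4 in 2-month mutants, which overlapped, while its controls rose from 622 to 943 (median 777) to 1905, 2936 and 1726 CPM (control change 1.5 ± 0.19). Cyp4a10 was at 2.48, 1.73 and 0.504 CPM in tumours and 8.86, 1.63 and 21.1 in 2-month mutants, and its control change did not pass. The acyl-CoA thioesterases behaved otherwise, since they rose early. Acot4, a peroxisomal thioesterase, was measured at 30.3 to 67.1 (median 50.7) CPM in 2-month controls and 139, 103 and 91.6 in 2-month mutants, and at 194, 190.0 and 122 in 9-month controls and 59, 44.3 and 84.7 in tumours. Acot4 had an early effect of 1.09 and a tumour effect of -1.43, which differed by -2.52 ± 0.38 (adjusted p = 0.00618). For Acot4, the tumours all lay below their controls and the 2-month mutants all lay above theirs. Acot2, its mitochondrial relative, had 11.4, 8.31 and 8.03 CPM in 2-month mutants, 4.94, 6.46 and 6.51 in tumours, 2.32 to 5.02 (median 3.77) in 2-month and 10, 15.4 and 10.00 in 9-month controls, with an interaction of -2.29 ± 0.36 (adjusted p = 0.008). Acot3, a further peroxisomal one, stood at 50.5, 7.01 and 55 CPM in the tumours against 135, 86.5 and 45.8 in their controls, and 131, 79.9 and 83.1 in 2-month mutants against 2.20 to 8.54 (median 5.21) in theirs. The interaction of Acot3 was -5.46 ± 0.88 (adjusted p = 0.00992), from a tumour effect of -1.25 and an early effect of 4.21. For Acot3, the tumours overlapped their controls and the 2-month mutants all lay above theirs. In all 3 the controls had risen between the times (Acot4 1.69 ± 0.24, Acot2 1.66 ± 0.23, Acot3 4.07 ± 0.56), and the levels of 2-month mutants and 9-month controls overlapped. These genes are close copies in 1 cluster, and the split of shared reads between them is uncertain. Acaa1b lost its call without 2-month mutant 2 (adjusted p = 0.0642), and Cyp4a10 lost its call without tumour-bearing mutant 2, 2-month mutant 1 or 3, 9-month control 3 or 2-month control 5 (adjusted p from 0.0503 to 0.0785). The list count was 5 without 2-month mutant 1 or 2 and 10 without the 9-month animals numbered 1.

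Most genes of fatty acid and triglyceride synthesis fell in tumours. Of 30 tested genes, 5 fell early (15.3% of all genes did) and 3 rose early, 17 fell and 1 rose in tumours, and the interaction passed in 6, all below 0 (median -1.00). Over all tested genes 17.8% rose early, 19.5% fell and 22.7% rose in tumours, and 1.73% passed below 0. The controls rose between the times in 7 of the 30 (3.92% of all genes did), among them Fads2 (0.98 ± 0.24) and Gpam (1.10 ± 0.19). For Fads2, the delta-6 desaturase, the 2-month mutants read 474, 924 and 368 CPM beside 569 to 771 (median 731) in controls, and the tumours 202, 322 and 216 CPM beside 1501, 1221 and 1384. In Fads2, the tumours all lay below their controls and the 2-month mutants overlapped theirs. Fads2's tumour effect (-2.47) minus its early effect (-0.24) came to -2.23 ± 0.37 (adjusted p = 0.00992). Elovl5, an elongase of polyunsaturated fatty acids, was measured at 512 to 936 (median 686) CPM in 2-month controls and 418, 825 and 338 in 2-month mutants, and at 1305, 1871 and 1297 in 9-month controls and 201, 38.7 and 158 in tumours. Elovl5 had an early effect of -0.38 and a tumour effect of -3.49, which differed by -3.11 ± 0.61 (adjusted p = 0.0176). For Elovl5, the tumours all lay below their controls and the 2-month mutants overlapped theirs. Gpam, the acyltransferase that starts glycerolipid synthesis, stood at 214, 196 and 305 CPM in the tumours against 446, 679.8 and 500.1 in their controls, and 288, 432 and 366 in 2-month mutants against 212 to 336 (median 246) in theirs. The interaction of Gpam was -1.71 ± 0.30 (adjusted p = 0.0122), from a tumour effect of -1.19 and an early effect of 0.52. For Gpam, the tumours all lay below their controls and the 2-month mutants overlapped theirs. For Mogat1, a monoacylglycerol acyltransferase, the 2-month mutants read 1.69, 2.29 and 2.32 CPM beside 0.303 to 0.879 (median 0.507) in controls, and the tumours 4.58, 0.886 and 2.14 CPM beside 9.32, 31.6 and 15.8. In Mogat1, the tumours all lay below their controls and the 2-month mutants all lay above theirs. Mogat1's tumour effect (-2.87) minus its early effect (1.94) came to -4.81 ± 0.71 (adjusted p = 0.00535). The tumour levels of Mogat1 overlapped those of the 2-month mutants, while its 9-month controls had risen (control change 5.11 ± 0.47). Scd1, the delta-9 desaturase, and Fads1, the delta-5 desaturase, passed at -2.52 ± 0.50 and -2.27 ± 0.57 and were chosen after their values were seen. Elovl5 lost its call without 2-month mutant 2 (adjusted p = 0.0561), and Scd1 lost its call without 2-month mutant 2 (adjusted p = 0.0619). Fads1 lost its call without 2-month mutant 1 or 2, any one 9-month control or any one 2-month control (adjusted p from 0.0542 to 0.155). The list count was 3 without 2-month mutant 2 and 6 without the 9-month animals numbered 1.

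Lipid droplet genes passed in 5 of 16, all below 0 (median -0.98), and the controls had risen in 7 of the 16. Among all tested genes 1.73% passed below 0, and the controls had risen in 3.92%. Cidec, the protein through which droplets fuse and grow, was measured at 1.02 to 2.39 (median 1.44) CPM in 2-month controls and 73.7, 339.9 and 191 in 2-month mutants, and at 38.9, 139 and 90.5 in 9-month controls and 84.9, 156 and 176 in tumours. Cidec had an early effect of 7.04 and a tumour effect of 0.64, which differed by -6.40 ± 0.72 (adjusted p = 0.000915). For Cidec, the tumours overlapped their controls and the 2-month mutants all lay above theirs. The 9-month controls had risen to levels that overlapped the tumours (control change 5.86 ± 0.48). Of the 7 listed adipocyte markers 4 were at 0 in the 2-month mutants and 4 in the tumours, and their summed level was 5.93 to 12.7 CPM in 2-month controls, 82 to 355 in 2-month mutants, 49.5 to 168 in 9-month controls and 133 to 221 in tumours. Cidec is itself on that list and made up most of the sum in every group but the 2-month controls. The sum is therefore not a measure of adipocytes apart from Cidec. G0s2, an inhibitor of the main triglyceride lipase, stood at 12.7, 18.9 and 15.9 CPM in the tumours against 251, 321 and 189 in their controls, and 15, 11.1 and 10.1 in 2-month mutants against 35.5 to 86 (median 61.9) in theirs. The interaction of G0s2 was -1.68 ± 0.38 (adjusted p = 0.0323), from a tumour effect of -4.0 and an early effect of -2.33. The controls of G0s2 rose (2.07 ± 0.24), while its levels in tumours and 2-month mutants overlapped. For G0s2, tumours and 2-month mutants both lay wholly below the controls of their time. Hsd17b11, a droplet-bound dehydrogenase, had 132, 120.5 and 115 CPM in 2-month mutants, 81.8, 68.6 and 57.6 in tumours, 177 to 219 (median 185) in 2-month and 213, 192 and 229.8 in 9-month controls, with an interaction of -0.97 ± 0.18 (adjusted p = 0.0141). Lipe, hormone-sensitive lipase, had 30.7, 20 and 20.6 CPM in 2-month mutants, 13.9, 10.4 and 10.9 in tumours, 13.3 to 28.1 (median 19.3) in 2-month and 24.6, 29.6 and 31.1 in 9-month controls, with an interaction of -1.54 ± 0.35 (adjusted p = 0.0328). G0s2 lost its call without 2-month mutant 1 or 2, 9-month control 1 or 2 or 2-month control 4 (adjusted p from 0.0562 to 0.116), and Hsd17b11 lost its call without 2-month mutant 1 (adjusted p = 0.0515). Lipe lost its call without tumour-bearing mutant 2, 2-month mutant 1 or 2, 9-month control 2 or 3 or 2-month control 1 or 5 (adjusted p from 0.0507 to 0.112). The list count was 1 and 2 without 2-month mutant 1 and 2, 3 without 2-month control 5, 2 and 3 without 9-month control 2 and 3, 3 without the 9-month animals numbered 1, and 2 with scaling by library size alone.

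**Figure D4:**
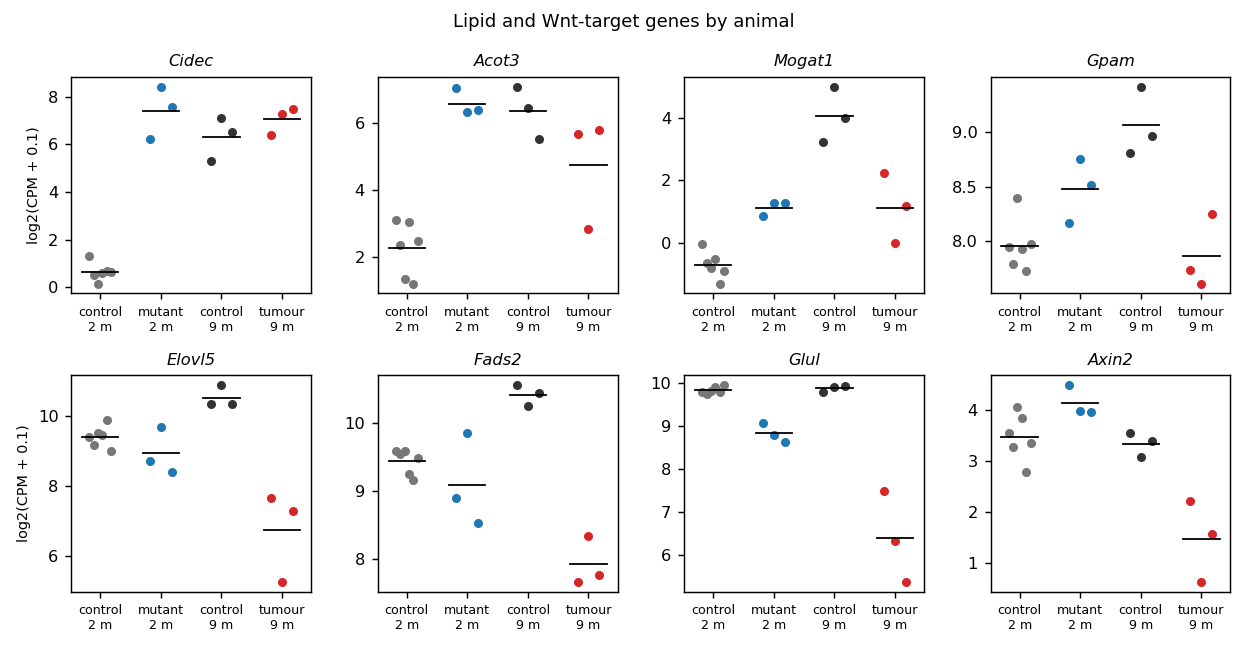
Level of 8 genes of lipid metabolism and the pericentral zone in each animal (y axis, log2 of CPM + 0.1) by group (x axis), with points as animals and bars as group means. In Cidec, Acot3 and Mogat1 the 9-month controls stand far above the 2-month controls, and in Fads2, Elovl5, Glul and Axin2 the tumours stand lowest of all groups.

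Amino acid breakdown and bile acid genes passed below 0 as well. Of 45 tested genes of amino acid breakdown and the urea cycle, 20 fell and 4 rose early, 36 fell and 1 rose in tumours, and the interaction passed in 10, all below 0 (median -0.93). Among all tested genes 15.3% fell and 17.8% rose early, 19.5% fell and 22.7% rose in tumours, and 1.73% passed below 0. For Mat1a, the liver form of methionine adenosyltransferase, the 2-month mutants read 4501, 4624 and 3953 CPM beside 2294 to 3202 (median 2528) in controls, and the tumours 2356, 1636 and 1565 CPM beside 4039.6, 2817 and 4128. In Mat1a, the tumours all lay below their controls and the 2-month mutants all lay above theirs. Mat1a's tumour effect (-0.98) minus its early effect (0.71) came to -1.70 ± 0.28 (adjusted p = 0.00992). Gpt2, the mitochondrial alanine aminotransferase, was measured at 437 to 523 (median 472) CPM in 2-month controls and 1098, 1382 and 979 in 2-month mutants, and at 894, 728 and 814 in 9-month controls and 910.0, 872 and 736 in tumours. Gpt2 had an early effect of 1.28 and a tumour effect of 0.05, which differed by -1.23 ± 0.21 (adjusted p = 0.00992). For Gpt2, the tumours overlapped their controls and the 2-month mutants all lay above theirs. Ass1, argininosuccinate synthase of the urea cycle, stood at 452, 287 and 279.9 CPM in the tumours against 1080.2, 917 and 1028 in their controls, and 1349, 1528 and 759 in 2-month mutants against 936 to 1493 (median 1195) in theirs. The interaction of Ass1 was -1.60 ± 0.34 (adjusted p = 0.0227), from a tumour effect of -1.57 and an early effect of 0.03. For Ass1, the tumours all lay below their controls and the 2-month mutants overlapped theirs. Bckdhb, a subunit of the branched-chain ketoacid dehydrogenase, had 74.2, 58.7 and 45.6 CPM in 2-month mutants, 46.1, 34.8 and 38.7 in tumours, 87.5 to 102 (median 90.5) in 2-month and 152, 138 and 127 in 9-month controls, with an interaction of -1.16 ± 0.21 (adjusted p = 0.0129). The controls rose in Gpt2 (0.77 ± 0.13) and Bckdhb (0.58 ± 0.13). Of 29 genes of bile acid synthesis and transport the interaction passed in 6, all below 0 (median -0.42), as it did in 1.73% of all genes. For Slc10a1, the sodium-dependent carrier that takes bile acids into hepatocytes, the 2-month mutants read 309.8, 295 and 225 CPM beside 689 to 929.5 (median 854) in controls, and the tumours 99.5, 129.8 and 76.9 CPM beside 1012, 658 and 916. In Slc10a1, tumours and 2-month mutants both lay wholly below the controls of their time. Slc10a1's tumour effect (-3.08) minus its early effect (-1.61) came to -1.47 ± 0.28 (adjusted p = 0.0143). Abcb4, the phospholipid pump of the bile canaliculus, was measured at 223 to 295 (median 243) CPM in 2-month controls and 987, 951 and 1057 in 2-month mutants, and at 302, 235 and 338 in 9-month controls and 338, 491 and 539 in tumours. Abcb4 had an early effect of 2.00 and a tumour effect of 0.64, which differed by -1.36 ± 0.25 (adjusted p = 0.0129). For Abcb4, tumours and 2-month mutants both lay wholly above the controls of their time. Abcb4 thus stayed above its controls in tumours, less far than at 2 months. Nr1h4, FXR, the bile acid receptor, had 144, 110.3 and 98.5 CPM in 2-month mutants, 87, 58.6 and 86.3 in tumours, 145 to 172 (median 163) in 2-month and 191, 196 and 189.6 in 9-month controls, with an interaction of -0.87 ± 0.21 (adjusted p = 0.0455). Ass1 lost its call without 2-month mutant 1 or 2 or 9-month control 1 or 3 (adjusted p from 0.0539 to 0.082), and Slc10a1 lost its call without 2-month mutant 1 or 2 (adjusted p from 0.0528 to 0.0546). Nr1h4 lost its call without tumour-bearing mutant 2, 2-month mutant 1 or 2, any one 9-month control or any one 2-month control (adjusted p from 0.066 to 0.158). The amino acid count ran from 3 (without 2-month mutant 1 or 2, or 9-month control 1 or 3) over 6 (without 2-month control 2, 4 or 6, or tumour-bearing mutant 2) to 16 and 17 (without 2-month mutant 3 and tumour-bearing mutant 1), and was 14 without the 9-month animals numbered 1. The bile acid count was 2 and 1 without 2-month mutant 1 and 2.

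**Figure D5:**
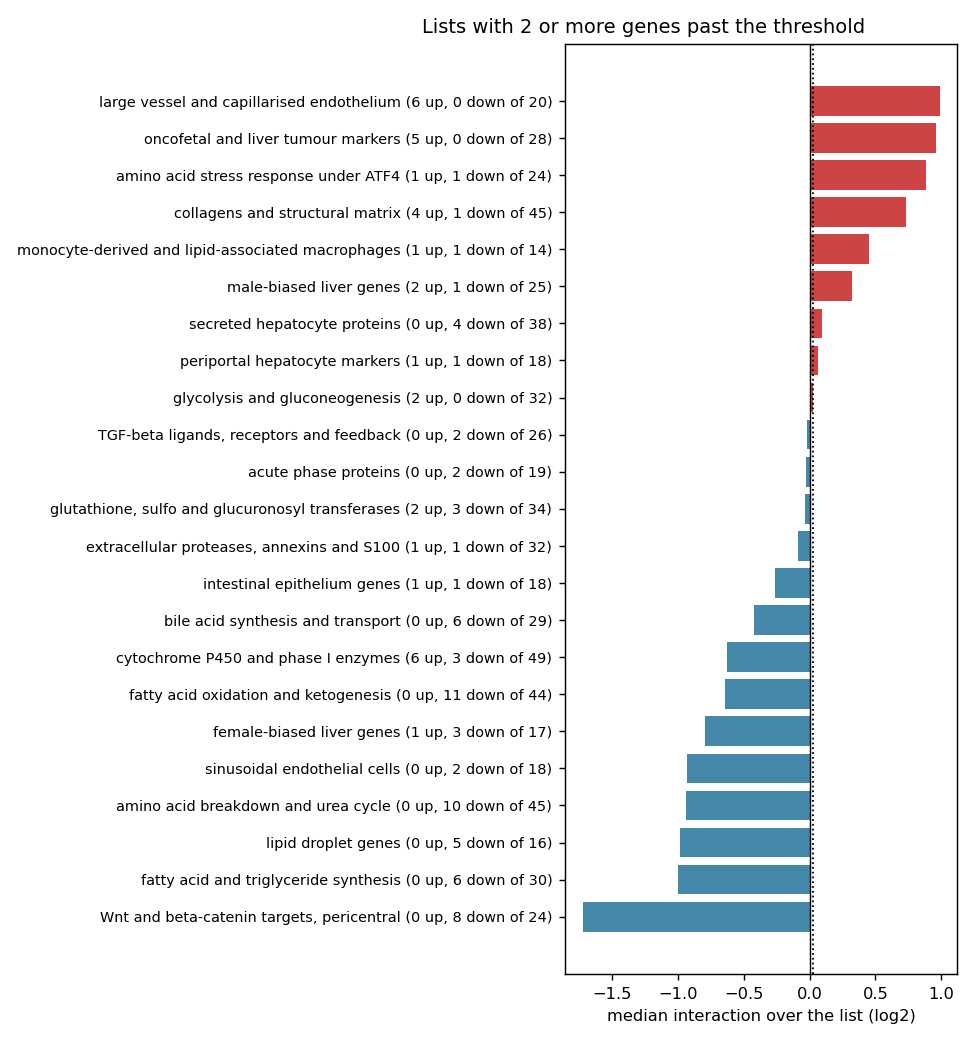
Median interaction (x axis, log2) of each gene list with 2 or more genes past the threshold (y axis), with the numbers past it in each direction and tested. The dotted line is the median of all tested genes, 0.028. Large vessel endothelium has the highest median and pericentral Wnt targets the lowest.

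Several of the largest falls left the tumours with almost no transcript, while other genes described here kept more. Wfdc21, a secreted protein of the whey acidic family, stood at 1.86, 0.886 and 0.63 CPM in the tumours against 405, 364 and 424 in their controls, and 46.4, 45.9 and 26 in 2-month mutants against 311 to 453 (median 379) in theirs. The interaction of Wfdc21 was -5.12 ± 0.41 (adjusted p = 4.46e-05), from a tumour effect of -8.39 and an early effect of -3.27. For Wfdc21, tumours and 2-month mutants both lay wholly below the controls of their time. For Csrp3, a LIM protein best known from muscle, the 2-month mutants read 27.3, 21.3 and 12.9 CPM beside 24.8 to 39.7 (median 36.6) in controls, and the tumours 1.20, 0.406 and 0.42 CPM beside 31, 35.7 and 33.5. In Csrp3, the tumours all lay below their controls and the 2-month mutants overlapped theirs. Csrp3's tumour effect (-5.50) minus its early effect (-0.76) came to -4.74 ± 0.44 (adjusted p = 0.000121). Olig1, a transcription factor best known from glial cells, was measured at 4.54 to 6.81 (median 5.56) CPM in 2-month controls and 0.621, 1.44 and 0.402 in 2-month mutants, and at 13.4, 10.7 and 8.37 in 9-month controls and 0, 0 and 0 in tumours. Olig1 had an early effect of -2.81 and a tumour effect of -10.75, which differed by -7.93 ± 0.84 (adjusted p = 0.000915). For Olig1, tumours and 2-month mutants both lay wholly below the controls of their time. With no count of Olig1 in any tumour, against 591 in the 9-month controls, the tumours were at least 363-fold lower, taking 3 counts over the group as the floor, and this bound, not the fitted effect, is the size that the counts give. In the tumour-free liver of the same mutants Wfdc21 was at 4.59, 1.71 and 1.82 CPM and Olig1 at 0, 0.342 and 0.519. Sult2a7, a hydroxysteroid sulfotransferase, stood at 0.0999, 0 and 0.084 CPM in the tumours against 9.71, 7.38 and 5.70 in their controls, and 1.64, 0.903 and 0.491 in 2-month mutants against 0.941 to 1.63 (median 1.36) in theirs. The interaction of Sult2a7 was -6.32 ± 0.69 (adjusted p = 0.000558), from a tumour effect of -6.70 and an early effect of -0.38. For Sult2a7, the tumours all lay below their controls and the 2-month mutants overlapped theirs. Sult2a7 has close copies, and its controls rose between the times (2.54 ± 0.36). Miga2, a mitochondrial outer membrane protein, had 54.6, 62 and 43.5 CPM in 2-month mutants, 35.6, 36.9 and 54.9 in tumours, 48 to 57.6 (median 52.5) in 2-month and 134, 155 and 135 in 9-month controls, with an interaction of -1.75 ± 0.21 (adjusted p = 0.0011). Aldh3a2, the fatty aldehyde dehydrogenase, had 316, 266 and 238 CPM in 2-month mutants, 213, 156 and 199 in tumours, 311 to 449 (median 348) in 2-month and 908, 831 and 1056 in 9-month controls, with an interaction of -1.85 ± 0.24 (adjusted p = 0.00183). In Miga2 and Aldh3a2 the 9-month controls also stood above the 2-month controls (1.43 ± 0.14 and 1.33 ± 0.15). The tumour levels of Miga2 overlapped those of the 2-month mutants, and those of Aldh3a2 lay below them. Clstn3, a calsyntenin, had 22.9, 14.5 and 10.3 CPM in 2-month mutants, 6.88, 1.44 and 11.5 in tumours, 8.09 to 20.3 (median 15.9) in 2-month and 76.4, 140.4 and 118 in 9-month controls, with an interaction of -4.22 ± 0.73 (adjusted p = 0.0129). Its controls rose as well (2.95 ± 0.45), and its levels in tumours and 2-month mutants overlapped. 

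In 32 genes both effects passed with opposite sign, 24 up at 2 months and down in tumours and 8 the other way. For Acp1, the low molecular weight tyrosine phosphatase, the 2-month mutants read 33.3, 35.3 and 30.7 CPM beside 22.3 to 25.3 (median 23.2) in controls, and the tumours 14.8, 14.2 and 18.3 CPM beside 25.1, 28 and 24.2. In Acp1, the tumours all lay below their controls and the 2-month mutants all lay above theirs. Acp1's tumour effect (-0.71) minus its early effect (0.50) came to -1.21 ± 0.15 (adjusted p = 0.00131). The controls of Acp1 were level between the times (0.14 ± 0.10). Cyp4a12a, a male-biased fatty acid hydroxylase, was measured at 174 to 368 (median 303) CPM in 2-month controls and 544, 465 and 459 in 2-month mutants, and at 870.4, 971 and 785 in 9-month controls and 251, 103 and 254 in tumours. Cyp4a12a had an early effect of 0.79 and a tumour effect of -2.11, which differed by -2.90 ± 0.40 (adjusted p = 0.00288). For Cyp4a12a, the tumours all lay below their controls and the 2-month mutants all lay above theirs. Cyp2b9, a female-biased cytochrome P450, stood at 29.9, 19.9 and 27.2 CPM in the tumours against 108, 216 and 69 in their controls, and 4.01, 0.782 and 1.56 in 2-month mutants against 0 to 0.899 (median 0.183) in theirs. The interaction of Cyp2b9 was -4.88 ± 0.92 (adjusted p = 0.0167), from a tumour effect of -2.35 and an early effect of 2.53. For Cyp2b9, the tumours all lay below their controls and the 2-month mutants overlapped theirs. For both P450 genes the controls rose (Cyp4a12a 1.63 ± 0.25, Cyp2b9 8.48 ± 0.63). Fam131c had 7.67, 14.5 and 8.03 CPM in 2-month mutants, 2.90, 4.80 and 0.966 in tumours, 1.81 to 2.4 (median 1.99) in 2-month and 2.50, 17.7 and 16.1 in 9-month controls, with an interaction of -4.36 ± 0.78 (adjusted p = 0.0129). The tumours of Fam131c overlapped their controls, which had risen (2.57 ± 0.49). Going the other way, the rule named the following. For Klhl13, an adaptor of a ubiquitin ligase, the 2-month mutants read 3.72, 3.49 and 5.22 CPM beside 4.78 to 8.69 (median 7.30) in controls, and the tumours 37.9, 29.5 and 18.3 CPM beside 9.59, 5.41 and 5.22. In Klhl13, the tumours all lay above their controls and the 2-month mutants overlapped theirs. Klhl13's tumour effect (2.09) minus its early effect (-0.79) came to 2.88 ± 0.41 (adjusted p = 0.00473). Tmem164 had 5.98, 5.18 and 8.74 CPM in 2-month mutants, 16.3, 11.2 and 12.9 in tumours, 10.5 to 13.9 (median 10.8) in 2-month and 9.59, 7.76 and 10.3 in 9-month controls, with an interaction of 1.34 ± 0.27 (adjusted p = 0.0204). Lrp2bp, a protein that binds the receptor megalin, had 0.846, 0.963 and 1.78 CPM in 2-month mutants, 5.14, 6.79 and 5.92 in tumours, 2.02 to 5.73 (median 2.85) in 2-month and 3.49, 3.17 and 2.23 in 9-month controls, with an interaction of 2.38 ± 0.49 (adjusted p = 0.021). In these 3 the control change was -0.10 ± 0.27, -0.32 ± 0.18 and -0.09 ± 0.31, and none passed. Cyp2b9 lost its call without 2-month mutant 1 (adjusted p = 0.0728), and Tmem164 lost its call without 2-month mutant 1 or 2 or 9-month control 2 (adjusted p from 0.0522 to 0.0584). Lrp2bp lost its call without 2-month mutant 1 or 2 or 9-month control 3 (adjusted p from 0.0657 to 0.0712).

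Some early falls were smaller or missing in tumours. The largest absolute interaction of the 385 (8.46) was that of the cytochrome P450 gene Cyp2a5, a coumarin hydroxylase. Cyp2a5 was measured at 162 to 682 (median 338) CPM in 2-month controls and 1.24, 1.63 and 1.34 in 2-month mutants, and at 883, 931 and 1101 in 9-month controls and 703, 2419 and 722 in tumours. Cyp2a5 had an early effect of -8.07 and a tumour effect of 0.40, which differed by 8.46 ± 0.83 (adjusted p = 0.000284). For Cyp2a5, the tumours overlapped their controls and the 2-month mutants all lay below theirs. Cyp2a4, its near-identical relative, a steroid hydroxylase, stood at 2265, 1272 and 3229 CPM in the tumours against 14.5, 91.8 and 36.5 in their controls, and 0.282, 0.181 and 0.491 in 2-month mutants against 0.228 to 4.57 (median 0.818) in theirs. The interaction of Cyp2a4 was 7.69 ± 1.34 (adjusted p = 0.0129), from a tumour effect of 5.57 and an early effect of -2.12. For Cyp2a4, the tumours all lay above their controls and the 2-month mutants overlapped theirs. Tumour-free liver of the same mutants held 607, 86.5 and 74.8 CPM of Cyp2a4 and 494, 76.1 and 57 of Cyp2a5. Cyp2a5 lies on chromosome 7, positions 26835305 to 26843548, plus strand, and Cyp2a4 on chromosome 7, positions 26307169 to 26315088, plus strand (GRCm38). The split of reads from shared transcript sequence between them is uncertain. The stretches before their RefSeq starts, which run a little past the starts given above, are shown because these relatives differed in level while the stretches are nearly the same (build GRCm38.p6, 5′ to 3′, positions that differ in capitals): 4 of 249 aligned bases differ (98.4% identity).
Cyp2a5 (chr7:26835089-26835337, plus strand): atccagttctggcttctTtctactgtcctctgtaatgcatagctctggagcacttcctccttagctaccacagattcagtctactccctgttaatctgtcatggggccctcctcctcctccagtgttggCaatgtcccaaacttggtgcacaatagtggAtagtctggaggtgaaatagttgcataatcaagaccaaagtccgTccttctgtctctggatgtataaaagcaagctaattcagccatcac
Cyp2a4 (chr7:26306943-26307191, plus strand): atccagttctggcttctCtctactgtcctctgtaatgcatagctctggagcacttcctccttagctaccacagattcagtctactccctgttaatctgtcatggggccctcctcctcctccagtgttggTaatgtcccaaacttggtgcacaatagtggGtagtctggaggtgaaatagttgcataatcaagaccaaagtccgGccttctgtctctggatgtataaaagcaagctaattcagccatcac
The levels of these genes nevertheless differed by group in different ways: Cyp2a5 was nearly lost in 2-month mutants and near its controls in tumours, and Cyp2a4 was near 0 at 2 months in both groups and high in the tumours of all 3 mutants. The pair of tumours of mutant 1 differed, with 4460 and 343 CPM of Cyp2a4 and 1296 and 187 CPM of Cyp2a5. The 9-month controls of Cyp2a4 had risen (5.03 ± 0.72).

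Several genes fell at both times and less far in tumours, and in Afm the early fall alone passed. Of 49 tested P450 and phase I enzymes 28 fell early and 30 in tumours, and the interaction passed in 6 above 0 and 3 below, although the median was below 0 (-0.63). Over all tested genes 15.3% fell early and 19.5% in tumours, and 0.891% passed above 0 and 1.73% below. The count above 0 was 3 without 2-month mutant 2, and that below 0 ran from 0 (without 2-month mutant 1, 2-month control 5 or 9-month control 3) over 1 (without 2-month mutant 2, 2-month control 1, 2, 3 or 4, or 9-month control 1) to 8 (without tumour-bearing mutant 1). For Ces1c, a secreted carboxylesterase, the 2-month mutants read 114, 74.8 and 33.3 CPM beside 2227 to 3199 (median 3028) in controls, and the tumours 549.9, 384 and 307 CPM beside 2656, 1889 and 2562. In Ces1c, tumours and 2-month mutants both lay wholly below the controls of their time. Ces1c's tumour effect (-2.52) minus its early effect (-5.31) came to 2.79 ± 0.46 (adjusted p = 0.00992). Ces1b, a close copy, was measured at 49.5 to 128 (median 97.2) CPM in 2-month controls and 0.395, 0.421 and 0.268 in 2-month mutants, and at 131, 88 and 113 in 9-month controls and 2.82, 16.1 and 24.5 in tumours. Ces1b had an early effect of -8.05 and a tumour effect of -2.94, which differed by 5.11 ± 0.89 (adjusted p = 0.0129). For Ces1b, tumours and 2-month mutants both lay wholly below the controls of their time. Ces1e, another, had 7.05, 3.31 and 2.23 CPM in 2-month mutants, 71.2, 26.2 and 27.9 in tumours, 205 to 284 (median 262) in 2-month and 445, 365 and 409.9 in 9-month controls, with an interaction of 2.66 ± 0.52 (adjusted p = 0.0176). Serpina1e, an alpha-1 antitrypsin copy, stood at 71.2, 12.6 and 30.9 CPM in the tumours against 1111, 226 and 562 in their controls, and 24.5, 13.6 and 18.3 in 2-month mutants against 4101 to 9760.5 (median 8145) in theirs. The interaction of Serpina1e was 4.55 ± 0.84 (adjusted p = 0.0141), from a tumour effect of -4.05 and an early effect of -8.60. For Serpina1e, tumours and 2-month mutants both lay wholly below the controls of their time. The controls of Serpina1e fell between the times (-3.53 ± 0.61), and its levels in tumours and 2-month mutants overlapped. Its neighbour Serpina1c moved the other way, with an early effect of -0.88, a tumour effect of -2.76 and an interaction of -1.88 ± 0.35. These Ces1 and Serpina1 genes belong to families of close copies, and the split of shared reads is uncertain. For Afm, afamin, a vitamin E carrier in plasma, the 2-month mutants read 82.5, 62.4 and 46.2 CPM beside 267 to 377 (median 329.8) in controls, and the tumours 162, 357 and 249.7 CPM beside 324, 299 and 301. In Afm, the tumours overlapped their controls and the 2-month mutants all lay below theirs. Afm's tumour effect (-0.27) minus its early effect (-2.37) came to 2.10 ± 0.33 (adjusted p = 0.00914). Car1, carbonic anhydrase 1, was measured at 5.57 to 9.89 (median 7.13) CPM in 2-month controls and 0, 0 and 0.0446 in 2-month mutants, and at 5.66, 5.52 and 6.41 in 9-month controls and 0.839, 0.295 and 0.588 in tumours. Car1 had an early effect of -8.28 and a tumour effect of -3.30, which differed by 4.98 ± 0.73 (adjusted p = 0.00493). For Car1, tumours and 2-month mutants both lay wholly below the controls of their time. The 2-month mutants held 1 count of Car1 against 635 in their controls, a ratio of 420 with a 95% counting interval of 75.1 to 16600. Alb, albumin, fell at both times, from 82398 to 102360.0 (median 100330.0) to 28076, 34461 and 25748 CPM early and from 94039, 83588 and 88963 to 44986, 61487 and 46717 in tumours, and its interaction of 0.93 ± 0.25 did not pass (adjusted p = 0.0712), though it did without tumour-bearing mutant 1 or 3 (adjusted p = 0.037 and 0.0346). Ces1e lost its call without 2-month mutant 2 (adjusted p = 0.0627).

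Early effects above 0, with a smaller or no called effect in tumours, were the other side of this set. Orm2, orosomucoid 2, an acute phase protein, stood at 50.7, 58.6 and 88.8 CPM in the tumours against 17.7, 41.7 and 20.4 in their controls, and 75, 142 and 363 in 2-month mutants against 4.87 to 12.7 (median 6.07) in theirs. The interaction of Orm2 was -3.46 ± 0.68 (adjusted p = 0.0189), from a tumour effect of 1.31 and an early effect of 4.77. For Orm2, tumours and 2-month mutants both lay wholly above the controls of their time. Orm3, its neighbour, had 72.3, 100.4 and 106 CPM in 2-month mutants, 32.6, 38.7 and 69.8 in tumours, 0.3 to 3.64 (median 1.26) in 2-month and 6.93, 22.8 and 9.29 in 9-month controls, with an interaction of -3.93 ± 0.73 (adjusted p = 0.0153). For Apoa4, apolipoprotein A-IV, carried on triglyceride-rich particles, the 2-month mutants read 13037, 27866 and 14052 CPM beside 135 to 681 (median 276) in controls, and the tumours 8194, 14064 and 12742 CPM beside 2513, 7038 and 3299. In Apoa4, tumours and 2-month mutants both lay wholly above the controls of their time. Apoa4's tumour effect (1.45) minus its early effect (5.77) came to -4.32 ± 0.85 (adjusted p = 0.0182). Osbpl3, an oxysterol-binding protein, had 107, 69.9 and 103 CPM in 2-month mutants, 87.8, 107 and 165 in tumours, 1.68 to 6.57 (median 2.29) in 2-month and 47.9, 57.9 and 49.9 in 9-month controls, with an interaction of -3.64 ± 0.52 (adjusted p = 0.00488). Themis, a signalling protein known from developing T cells, was measured at 0.145 to 0.45 (median 0.325) CPM in 2-month controls and 9.70, 14.1 and 14.1 in 2-month mutants, and at 11, 19.2 and 9.34 in 9-month controls and 18.5, 12.2 and 54.7 in tumours. Themis had an early effect of 5.30 and a tumour effect of 1.11, which differed by -4.20 ± 0.66 (adjusted p = 0.00943). For Themis, the tumours overlapped their controls and the 2-month mutants all lay above theirs. The summed level of 26 listed T, NK and B cell markers was 52.1 to 109 CPM in 2-month controls, 100 to 224 in 2-month mutants, 72.6 to 116 in 9-month controls and 77.6 to 281 in tumours, and none of 22 tested passed. Fam126a had 34.2, 28.2 and 28.9 CPM in 2-month mutants, 25.3, 36 and 26.5 in tumours, 7.28 to 10.6 (median 9.18) in 2-month and 22.4, 24.6 and 23.5 in 9-month controls, with an interaction of -1.45 ± 0.21 (adjusted p = 0.00493). Treh, trehalase, had 30.8, 36.5 and 42.7 CPM in 2-month mutants, 44, 21.7 and 70.2 in tumours, 0.525 to 2.03 (median 0.924) in 2-month and 7.10, 21.7 and 10.00 in 9-month controls, with an interaction of -3.26 ± 0.62 (adjusted p = 0.0167). In all of these the controls rose between the times, by 1.91 ± 0.44 in Orm2, 2.94 ± 0.49 in Orm3, 3.67 ± 0.53 in Apoa4, 4.00 ± 0.34 in Osbpl3, 5.36 ± 0.47 in Themis, 1.39 ± 0.14 in Fam126a and 3.56 ± 0.43 in Treh. The levels of tumours and 2-month mutants overlapped in Orm2, Apoa4, Osbpl3, Themis, Fam126a and Treh. In Orm3 all tumours lay below the 2-month mutants. Dhrs1, a short-chain dehydrogenase, stood at 152, 137 and 89.4 CPM in the tumours against 137, 118 and 167 in their controls, and 395, 439 and 350.1 in 2-month mutants against 128 to 181 (median 137) in theirs. The interaction of Dhrs1 was -1.58 ± 0.26 (adjusted p = 0.00992), from a tumour effect of -0.15 and an early effect of 1.43. For Dhrs1, the tumours overlapped their controls and the 2-month mutants all lay above theirs. Dhrs1 differed from the genes with risen controls in that its own were level (-0.06 ± 0.17). Apoa4 lost its call without 2-month mutant 2 (adjusted p = 0.0585).

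Since the transgene encodes an AP-1 dimer, the 300-base windows around the RefSeq gene starts were searched for the AP-1 motif TGANTCA, which reads the same on both strands. Of 11020 tested genes matched by symbol, 6.78% held a match, against 6 of 101 genes with an interaction above 0 and 15 of 198 below 0 (5.94% and 7.58%). Of 32 matched genes with an early rise, no called tumour effect and an interaction below 0, 4 held one (12.5%). The share was 3.85% of 52 genes with a tumour effect alone and an interaction above 0, 8.33% of 72 such genes below 0, and 2.99% of 67 genes with a larger fall in tumours. The motif E-box CACGTG, the binding motif of Myc and its relatives, was in 11.5% of all matched genes, 10.9% of those above 0 and 13.1% of those below. The stretches around the match of 4 of the genes described above are shown with the match in capitals (RefSeq, build GRCm38.p6). These genes had an early effect above 0 and a tumour effect that was smaller, not called or reversed. They were picked by name, and other genes described above with that pattern are not shown. The 4 therefore do not tell how common the motif is among such genes. A match is a description of the sequence and shows no binding.
Cidec (chr6:113434824-113434890, minus strand): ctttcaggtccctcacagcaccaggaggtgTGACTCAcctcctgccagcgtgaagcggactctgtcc
Orm2 (chr4:63362212-63362278, plus strand): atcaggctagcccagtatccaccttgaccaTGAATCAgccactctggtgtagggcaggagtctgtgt
Orm3 (chr4:63355920-63355986, plus strand): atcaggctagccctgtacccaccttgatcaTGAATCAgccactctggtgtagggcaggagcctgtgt
Acot4 (chr12:84038238-84038304, plus strand): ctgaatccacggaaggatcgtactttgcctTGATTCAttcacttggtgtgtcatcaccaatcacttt
Klhl13, lower early and higher in tumours, also held a match, 120 bases before the RefSeq start used. The matches shown start 96, 207, 208 and 111 bases before the RefSeq start used. For Cidec and Klhl13 the RefSeq start used lies inside the gene as annotated in GENCODE M21, not at its first base. Orm2 and Orm3 are close copies, and the stretches of both hold the same match.

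Other gene groups had no member past the interaction threshold, which 2.62% of all tested genes passed. Over all tested genes 17.8% were higher and 15.3% lower early, and 22.7% higher and 19.5% lower in tumours. None of 38 tested genes of mitosis passed (median 0.37), with 31 higher and 1 lower in the early effect and 32 higher in the tumour effect. Their summed level was 20.3 to 31.1 CPM in 2-month controls, 36.8 to 81.5 in 2-month mutants, 24.4 to 69.4 in 9-month controls and 119 to 129 in tumours. None of 39 nuclear genes of oxidative phosphorylation passed (median -0.26), with 31 lower early and 37 in tumours. None passed among 22 genes of the NRF2 antioxidant response (median 1.08), with 6 higher and 3 lower early and 13 higher and 1 lower in tumours. There was also none among 11 of the AP-1 family, 25 targets of p53, 37 interferon-stimulated genes, 25 targets of YAP and TEAD, 18 bile duct and progenitor markers, 16 Kupffer cell and macrophage markers and 12 dendritic cell and MHC class II genes. A gene that did not pass may still differ in its effects, and the SE of the interaction sets what could be seen: for Fosl2 it was 0.37.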

How the data were processed

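Gene counts of 16 poly(A) libraries from 15 mice were used, out of 19 libraries. The deposited table gives whole-number counts per gene and library. Tools named in the submitters' processing notes are DESeq2 1.22.2, RSEM, STAR 2.6.1a and bedtools 2.27.1, on build GRCm38 (role and annotation not given in the sources used here). Since RSEM is among them, the counts may be rounded estimates, and reads of near-identical genes may have been split between them.

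After edgeR's filter on low counts and TMM scaling, 1 robust quasi-likelihood fit with a mean per group (edgeR 4.0.16, R 4.3.3) gave all contrasts. The test was also tested on simulated data with known changes in 200 of 14377 genes. It called 16% of the 2-fold and 58% of the 4-fold interactions, so most 2-fold ones were missed. Of its 75 calls 1 was an unchanged gene, against 27 of 123 with DESeq2. The simulated counts were drawn once, with the spread per gene that edgeR had estimated and no outlying animals. They therefore do not rank the tools on the real counts. Replicates are separate animals, and n counts animals. Intervals and floors cover counting error only, and the depth per library limits what low genes can show. Coordinates come from GENCODE M21 (14688 of 14701 tested genes matched ignoring the version) and promoter windows from RefSeq (11020 matched by symbol).

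Named genes are Jun, Fosl2 and Myc, the 12 largest rises and 12 largest falls (protein coding, adjusted p under 0.05, at least 5 CPM in a group, animals not overlapping), the 4 smallest adjusted p-values per pattern and direction, and up to 4 members per list. Not every gene named by this rule is described. The comparison, the 51 gene lists and the rule were chosen with earlier results of these data known. The other 14 genes were chosen after their values were seen. Alternatives were DESeq2 1.42.0, limma voom 3.58.1, RLE size factors, library size alone, no filter, protein coding genes only, all 5 groups in 1 fit, tumours kept separate or single, a replicate block, a 2-fold minimum, and leaving out animals.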

Additional observations from a re-analysis of the deposited data

Results flagged for a closer look

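The tumour effect differed from the early effect in 385 genes by the interaction test of edgeR. Among the named genes, 13 had called effects of opposite sign at the 2 times. Their interactions were -2.29 for Acot2, -2.52 for Acot4, -1.21 for Acp1, -4.88 for Cyp2b9, -2.90 for Cyp4a12a, -4.36 for Fam131c, -1.71 for Gpam, -1.70 for Mat1a and -4.81 for Mogat1. They were 2.88 for Klhl13, 2.38 for Lrp2bp, 2.81 for Nid2 and 1.34 for Tmem164.

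In 13 of 100 named genes, 1 of the 6 2-month controls stood apart from the others by more than Dixon's 95% limit, which chance passes in about 1 of 20 groups. Control 1 was the high one for Cidec (2.39 CPM, next 1.52), Dnase1l3 (92.1, next 57.4), Fcgr2b (66.2, next 44.5), Tie1 (18.9, next 14.2) and Wnt2 (4.02, next 2.62), of which 4 are endothelial genes. Control 2 was low for Alb (82398 CPM, next 98367) and Ces1c (2227, next 2973) and high for Lrp2bp (5.73, next 2.89) and Orm2 (12.7, next 7.31). Control 3 was high for Gpam (336, next 252) and Nid2 (21.6, next 13.0). Control 5 was high for Aldh18a1 (3.64, next 2.36) and low for Rnf43 (22.8, next 38.1).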

How the results depend on the processing

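The 385 interaction calls were 131 higher and 254 lower. DESeq2 called 866 (344 higher, 522 lower) and limma voom 326 (87 and 239). Scaling by library size alone moved the median of all genes to 0.183 and gave 173 higher and 156 lower, so the share of higher genes rose from 34.0% to 52.6%. A 2-fold minimum left 21 (9 and 12), with 1686 for the tumour effect, 1030 for the early effect and 85 for the control change. The control change passed in 1453 genes with DESeq2. Without both 9-month animals numbered 1 the interaction passed in 659 (272 and 387), and of 100 named genes 6 lost their call: Fads1, G0s2, Nr1h4, Rnf43, Sparc and Tie1. Leaving out 1 animal at a time gave 131 to 819 calls (48 to 325 higher, 83 to 494 lower), 3031 to 5343 for the early effect, 5169 to 6280 for the tumour effect and 301 to 1298 for the control change. The share whose effects were larger in tumours or called in them alone, 69.4% in all, ran from 58.1% to 79.7%. Where an animal was left out of a group of 3, the other 2 stood for it. With the replicate number as a block within each time 4 genes passed (2 and 2), 50% of them of that kind, and the early effect passed in 2219. The numbers share no stated origin: same-numbered mutants and controls had correlations of their deviations across genes of -0.106, 0.253 and -0.228 at 2 months and 0.122, -0.02 and -0.033 at 9 months, so they were not taken as pairs. The control change cannot be estimated with that block. No named gene reversed its sign under any alternative. In each of the alternatives the cause of a moved count was not tested, except that the 2-fold minimum is by construction stricter. Depth limits low genes such as Ly6c1 and Bex2.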
